A study of Homo sapiens with 10 samples.

Results

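The mRNA libraries made after knockdown of YTHDF1 in HCT116, a human colorectal cancer cell line, were compared gene by gene with the control mRNA library. They are 3 of the 10 samples of the series: 1 control library and 2 knockdown libraries. All HCT116 samples are labelled as exposed to cycloheximide, which stalls ribosomes, at 100 ug/ml for 3 min. The control carried a hairpin against GFP and the knockdown libraries carried hairpins against YTHDF1, labelled shY1-1 and shY1-2 and called knockdown 1 and knockdown 2 here. The genotype field gives shY1 for both, so whether they are different hairpins or repeats of one is not settled by the labels. The labels do not say that the libraries came from separate cultures, and any p-value measures only the spread between them, which may be technical. Of 6926 rows in the expression table, 12 had names damaged by a spreadsheet and 257 lay below a mean log2(value + 1) of 1 over the mRNA libraries, which left 6657 genes. For each gene the control was subtracted from each knockdown library on the log2(value + 1) scale, and a gene was counted as agreeing where both differences were at least 0.5 on the same side. Both differences use the same control library, so an unusual control value moves both.

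YTHDF1 is a cytoplasmic reader of N6-methyladenosine (m6A), a methyl mark that a writer complex around METTL3 and METTL14 places in mRNA, mostly in DRACH sequence contexts such as GGAC. It is best known for promoting translation of marked mRNAs, and its paralogues YTHDF2 and YTHDF3 are known for roles in mRNA decay. The stated purpose of the series was translation. The mRNA libraries alone address which transcripts stood higher or lower when the reader was depleted, and m6A peak numbers and YTHDF1 RNA immunoprecipitation (RIP) ratios from other samples of the series annotate each gene. The RIP, its input and the m6A samples are labelled as control HCT116 cells.

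YTHDF1 mRNA (chr20:63195429-63216131) stood at 27.4 in the control library, 8.62 in knockdown 1 and 7.81 in knockdown 2. Both knockdown values were below the control and the mean of the pair was 8.22 ± 0.575 (SD, n = 2). The differences were -1.56 and -1.69, and limma gave a mean difference of -1.62 ± 0.35 (SE) with unadjusted p = 0.00251 and adjusted p = 1. Its own mRNA had 3 m6A peaks and a RIP ratio of 2.50.

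Values are deposited relative abundances in a unit the file headers do not name. Over the listed genes they summed to between 339763.3 and 345044.1 in the 3 mRNA libraries, the read depth is unknown, and the lowest control value was 0.501 while 5 and 7 genes were at 0 in knockdown 1 and knockdown 2. The table therefore starts from genes present in the control. The genes tested lay on chromosomes 1 to 4 and 10 to 22, plus 1 gene on chromosome 7, and genes of the remaining chromosomes, which the RIP and m6A lists do hold, were not analysed here. The median SD between the knockdown libraries was 0.226 on the log2 scale. Over all genes the median differences were -0.04 and 0.02 for knockdown 1 and knockdown 2, while the SD of the differences across genes was 0.556 and 0.360, so the first knockdown library spread more widely around the control.

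No gene passed limma at an adjusted p of 0.05 (0% of genes tested), 101 genes had an unadjusted p below 0.05, and the smallest adjusted p was 0.208. The fit had 1 residual degree of freedom and assumed that the lone control varied like the knockdown pair. For a single gene, an exact permutation of 2 libraries against 1 cannot give a two-sided p below 0.333. All of what follows is therefore given as values and counts. At least 0.5 higher in both knockdown libraries were 172 genes (2.58%), and at least 0.5 lower in both were 192 genes (2.88%). Without a minimum, 2063 genes (31.0%) were above the control in both and 1982 (29.8%) below it in both. In knockdown 1 alone 895 genes (13.4%) were at least 0.5 higher and 1183 (17.8%) at least 0.5 lower, and in knockdown 2 alone 422 (6.34%) and 382 (5.74%). A minimum of 1 in both left 20 genes higher (0.3%) and 25 lower (0.376%). Past 0.5 in opposite directions were 46 genes. Just inside the limits lay CERS5 with differences of 0.51 and 0.50 and ALDH6A1 with -1.43 and -0.50. Just outside lay SRGAP2 with 0.50 and 0.499 and DHX34 with -0.82 and -0.498.

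**Figure D1:**
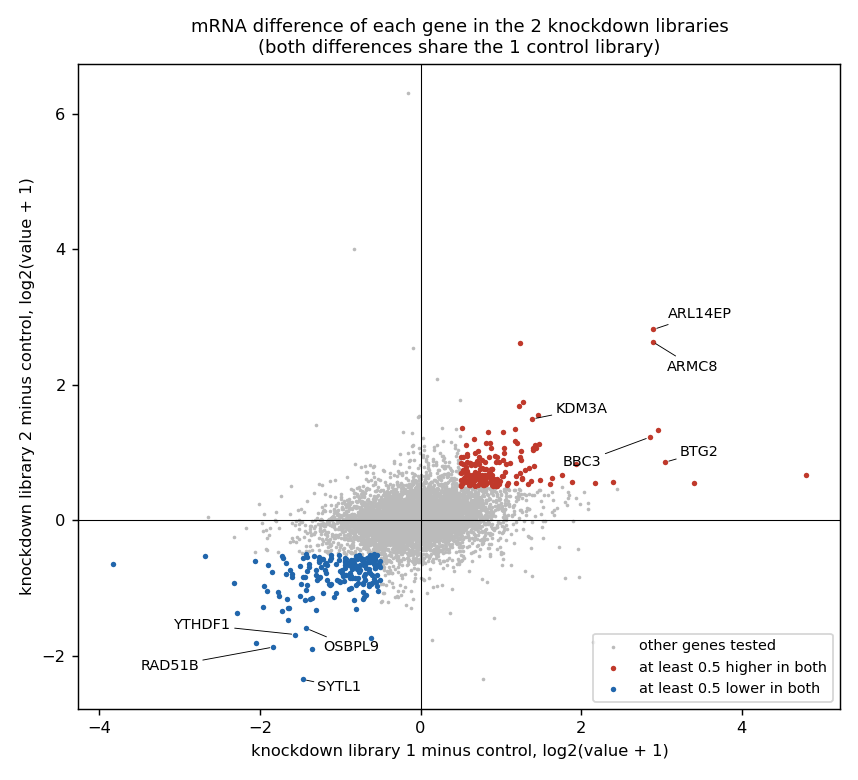
Difference of each of 6657 genes from the control in knockdown library 1 (x axis) and knockdown library 2 (y axis), both on log2(value + 1). The 172 red and 192 blue points are at least 0.5 from the control on the same side in both, and the cloud is wider along the x axis, with an SD of 0.556 against 0.360.

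The strongest agreement on the higher side was in ARL14EP, an effector of the small GTPase ARL14 (chr11:30323104-30338223). Its mRNA stood at 9.50 in control cells, 77.4 in knockdown 1 and 72.9 in knockdown 2. Both knockdown values lay far above the control and close to each other, with differences of 2.90 and 2.81 and limma adjusted p = 0.208. ARMC8, an armadillo-repeat subunit of the CTLH ubiquitin ligase complex (chr3:138187248-138298389), stood at 13.6, 106.8 and 89.4 in the same order, also with adjusted p = 0.208. Neither gene had an m6A peak or a RIP entry. Their ribosome footprints did not separate the same way. Footprints of ARL14EP were 80.8 in control cells, 92.0 in knockdown 1 and 60.6 in knockdown 2, and those of ARMC8 were 26.7, 43.3 and 25.5, so in both genes the control lay between the knockdown libraries.

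KDM3A, a histone H3K9 demethylase, was the next gene by its smaller difference among those with a mean level of at least 3. Its mRNA stood at 5.80 in control cells, 16.9 in knockdown 1 and 18.2 in knockdown 2 (17.5 ± 0.924, SD, n = 2). The knockdown pair was tight and apart from the control, and the gene carried 4 m6A peaks and a RIP ratio of 2.27. BIRC2, a ubiquitin ligase that restrains apoptosis, stood at 9.32, 26.3 and 20.6. TMEM135, a membrane protein of peroxisomes and mitochondria, stood at 11.1, 27.3 and 37.7. The rule that chose these genes requires both knockdown libraries to lie on the same side of the control. In limma both genes had adjusted p = 1. HTT, which encodes huntingtin, stood at 8.46 in the control and at 17.3 and 17.1 in the knockdown libraries. It had the most m6A peaks of the 15 genes chosen on the higher side, with 9 peaks and a RIP ratio of 5.21. Its footprints went the other way, with 12.5 in the control and 3.66 and 4.43 in the knockdown libraries.

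In other genes of this group the knockdown libraries agreed in side but not in size. WASHC4, a subunit of the actin-nucleating WASH complex on endosomes, stood at 2.95 in control cells, 29.8 in knockdown 1 and 8.97 in knockdown 2. BBC3, which encodes the pro-apoptotic p53 target PUMA, stood at 2.80, 26.4 and 7.87. In both, the SD between the knockdown libraries on the log2 scale (1.15 each) was about as large as the smaller difference (1.34 and 1.22). The 15 genes of the higher side chosen by the rule also included FAM98A, FBXO27 (an F-box protein), ZNF778 and ZNF226 (zinc finger proteins), DNAJC15 (a mitochondrial J-protein), NPEPPS (the puromycin-sensitive aminopeptidase) and ZC3H8 (a zinc finger protein of the little elongation complex). Their smaller differences ran down to 0.86, and over all 15 the unadjusted limma p ran from 4.56e-05 to 0.0326. The 15 were chosen on the same differences, so these p-values are no separate evidence. Of the 15, 9 had an m6A peak and 4 were in the RIP list, against 83.9% and 36.2% of all genes tested.

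On the lower side YTHDF1 itself had the largest smaller difference among genes with a mean level of at least 3. GPRC5C, an orphan G protein-coupled receptor (chr17:74432088-74451658), stood at 19.2 in control cells, 5.45 in knockdown 1 and 6.31 in knockdown 2. OSBPL9, a lipid transfer protein (chr1:51518272-51789219), stood at 72.9, 26.6 and 23.5. SYTL1, a Rab27 effector (chr1:27342022-27353932), stood at 32.6, 11.2 and 5.60. The control lay above both knockdown values in all 3 genes, as the rule that chose them requires. Their limma unadjusted p was 0.00384, 0.00243 and 0.00400, each with adjusted p = 1. GABPB1, a subunit of the ETS-family factor GABP, stood at 17.8, 6.22 and 7.36. PTMS, the small acidic protein parathymosin, was the most abundant of the group at 121.2, 59.8 and 63.9. NPAS2, a circadian transcription factor, stood at 30.4, 15.2 and 15.8. PTMS and NPAS2 had knockdown libraries within 0.1 of each other on the log2 scale. The linker histone gene H1FX stood at 27.9, 12.2 and 13.9.

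The group also included PSKH1 (a kinase), RAB28 (a small GTPase), CBFA2T3 (a transcriptional corepressor), ZFP1 (a zinc finger protein), CDKL1 (a kinase) and IMMP1L (a mitochondrial inner membrane peptidase). CDKL1 showed the widest gap between its knockdown libraries, at 26.7 in control cells, 4.57 in knockdown 1 and 13.6 in knockdown 2. Unadjusted limma p over the 15, again chosen on the same differences, ran from 0.00243 to 0.0347. In the m6A data 14 of the 15 had a peak and 5 were in the RIP list. For zinc finger and histone genes, which have close relatives, the sources used here do not say how the authors' counting split shared reads. Over all 161 tested genes named ZNF, a group formed by name after the values were seen, 6 were at least 0.5 higher in both and 8 at least 0.5 lower in both, against 2.58% and 2.88% of all genes.

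**Figure D2:**
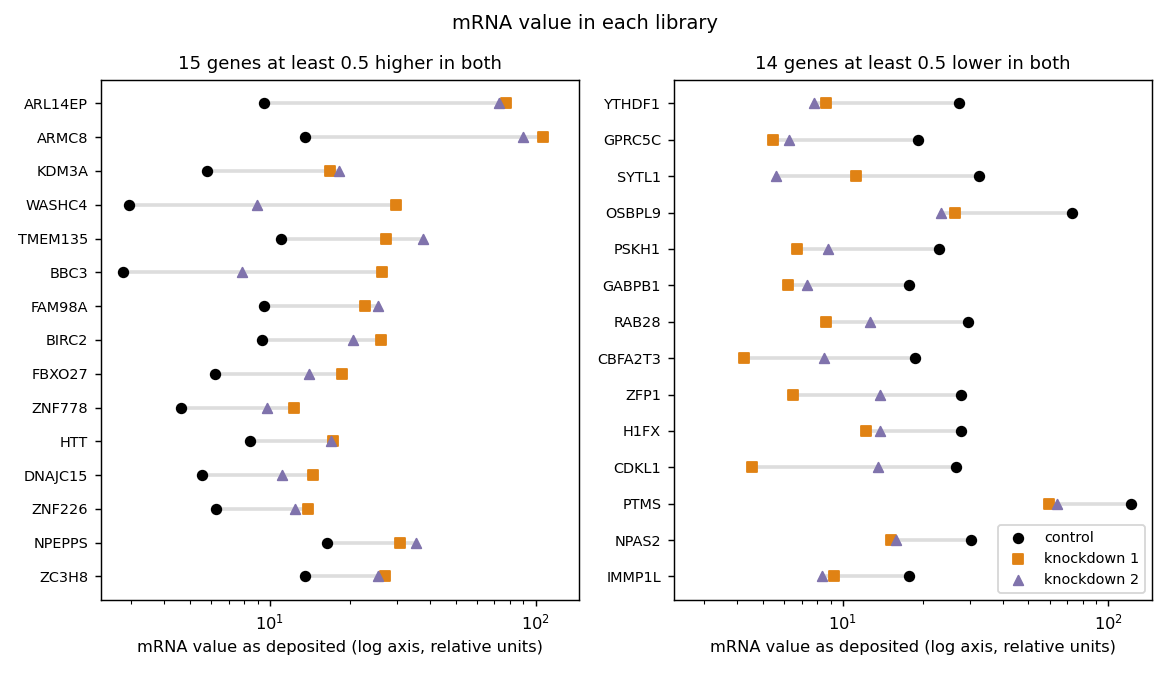
Deposited mRNA value (log axis, relative units) in the control (black circle), knockdown 1 (orange square) and knockdown 2 (violet triangle) for 15 higher and 14 lower genes among those with the largest smaller difference and a mean level of at least 3. ARL14EP and ARMC8 stand at 9.50 and 13.6 in the control against at least 72.9 and 89.4 after knockdown, while WASHC4, BBC3 and CDKL1 differ widely between the knockdown libraries.

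Genes below that mean level also agreed. RAD51B, a gene of homologous recombination (chr14:67819779-68683096), stood at 15.7 in control cells, 3.69 in knockdown 1 and 3.57 in knockdown 2. Its differences of -1.83 and -1.87 were larger than those of YTHDF1, with limma unadjusted p = 0.00168 and adjusted p = 1. PCCA, a subunit of mitochondrial propionyl-CoA carboxylase, stood at 2.18, 7.80 and 8.35. LPP, a LIM-domain protein of focal adhesions, stood at 13.3, 4.58 and 2.82. In these 3 genes, named after their values were seen, the control lay outside the knockdown range. RAD51B had no m6A peak.

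Some of the widest differences belonged to 1 library. PLD1, phospholipase D1, stood at 0.903 in control cells, 51.9 in knockdown 1 and 2.02 in knockdown 2, and FHIT, a dinucleoside polyphosphate hydrolase, at 60.6, 3.34 and 38.2. PLD1 and FHIT met the agreement rule, with smaller differences of 0.67 and -0.65, although almost all of their distance from the control came from knockdown 1.

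Medians of the 34 gene lists spread more widely in knockdown 1 than in knockdown 2. Counts cover tested members only: 34 of 54 listed p53 targets and 17 of 43 Wnt targets were tested, and CDKN1A, the p53 target on chromosome 6 that encodes p21, was not analysed here. Transcriptional targets of p53, genes of cell cycle arrest, DNA repair and apoptosis, had the highest median in knockdown 1. Of 34 tested, 20 were above the control in both libraries and 1 below it in both (58.8% and 2.94%, against 31.0% and 29.8% of all genes). The median difference was 0.71 in knockdown 1 and 0.12 in knockdown 2. In knockdown 1, 31 of 34 were above the control, and in knockdown 2 22 of 34, against 3127 and 3611 of all 6657 genes. At least 0.5 higher in both were BBC3, BTG2, APAF1 and RPS27L, and CDIP1 was at least 0.5 lower in both. BTG2, an antiproliferative gene, stood at 5.29 in control cells, 51.1 in knockdown 1 and 10.4 in knockdown 2. APAF1, the scaffold of the apoptosome, stood at 1.04, 2.15 and 2.16, and RPS27L, a ribosomal protein-like p53 target, at 24.4, 76.7 and 36.0. Only APAF1 among these 3 had knockdown values close to each other. Further members, named after their values were seen, showed the same imbalance. FAS, a death receptor, stood at 5.19, 16.5 and 6.56, SESN2, a sestrin, at 2.42, 13.0 and 3.58, and MDM2, the ubiquitin ligase that limits p53, at 57.4, 99.8 and 64.0. The footprint medians of the list were 0.71 in knockdown 1 and -0.335 in knockdown 2, against -0.188 and -0.335 over all 6519 genes with a footprint level.

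Genes of mitosis, which execute chromosome condensation, spindle assembly and cytokinesis, had a median below the control in knockdown 1 and at the control in knockdown 2. Of 52 tested, 24 (46.2%) were below the control in both and 3 (5.77%) above it in both, against 29.8% and 31.0% of all genes. The median was -0.60 in knockdown 1 and 0.00 in knockdown 2. Below the control were 47 of 52 members in the first and 26 of 52 in the second, against 3530 and 3046 of all 6657 genes. UBE2S, the ubiquitin chain-elongating enzyme of the anaphase-promoting complex, was the one member at least 0.5 lower in both, at 368.0 in control cells, 211.9 in knockdown 1 and 223.8 in knockdown 2. Its footprints were 1077, 547.2 and 554.9, lower in both, as were those of 50.8% of the 6519 genes with a footprint level. It had no m6A peak. The other members mostly followed the first library. CDC20, an activator of the anaphase-promoting complex, stood at 341.4, 170.3 and 336.1. PLK1, a mitotic kinase, stood at 213.7, 126.0 and 203.4. TOP2A, the mitotic topoisomerase, was more even at 17.6, 13.4 and 14.0.

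Promoters of many mitotic genes hold a cell cycle homology region (CHR) and CCAAT boxes, which the DREAM and MMB complexes and NF-Y are known to bind. The 250 bases before the start site are shown for the 4 members lower in both libraries that hold a CHR and had the largest mean decrease, and for UBE2S. The sequences are from RefSeq, build GRCh38.p14, written 5′ to 3′ on the gene's strand, with CHR (TTTGAA, or TTCAAA on the other strand) and CCAAT (or ATTGG) in capitals. They are SPC25 at chr2:168890431-168890680 (minus strand), CDC20 at chr1:43358731-43358980 (plus strand), PLK1 at chr16:23678639-23678888 (plus strand), TOP2A at chr17:40417897-40418146 (minus strand) and UBE2S at chr19:55407789-55408038 (minus strand).
SPC25: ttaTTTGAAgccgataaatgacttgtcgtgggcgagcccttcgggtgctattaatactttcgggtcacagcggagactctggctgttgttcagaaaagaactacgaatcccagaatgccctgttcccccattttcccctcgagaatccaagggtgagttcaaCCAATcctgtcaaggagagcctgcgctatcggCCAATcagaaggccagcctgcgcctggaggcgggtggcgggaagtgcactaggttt
CDC20: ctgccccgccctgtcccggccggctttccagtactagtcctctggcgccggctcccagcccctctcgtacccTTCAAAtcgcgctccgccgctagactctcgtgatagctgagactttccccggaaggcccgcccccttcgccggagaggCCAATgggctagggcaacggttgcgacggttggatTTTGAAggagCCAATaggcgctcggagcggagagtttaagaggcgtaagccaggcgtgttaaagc
PLK1: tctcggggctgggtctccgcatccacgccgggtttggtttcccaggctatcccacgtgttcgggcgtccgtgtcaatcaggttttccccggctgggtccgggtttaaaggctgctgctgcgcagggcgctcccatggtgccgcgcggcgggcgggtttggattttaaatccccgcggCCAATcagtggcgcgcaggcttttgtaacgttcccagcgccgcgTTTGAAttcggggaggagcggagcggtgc
TOP2A: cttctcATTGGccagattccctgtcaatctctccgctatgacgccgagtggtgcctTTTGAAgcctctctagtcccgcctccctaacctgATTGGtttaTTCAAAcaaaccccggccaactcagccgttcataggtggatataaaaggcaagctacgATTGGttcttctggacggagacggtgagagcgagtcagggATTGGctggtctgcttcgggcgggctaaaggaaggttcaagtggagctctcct
UBE2S: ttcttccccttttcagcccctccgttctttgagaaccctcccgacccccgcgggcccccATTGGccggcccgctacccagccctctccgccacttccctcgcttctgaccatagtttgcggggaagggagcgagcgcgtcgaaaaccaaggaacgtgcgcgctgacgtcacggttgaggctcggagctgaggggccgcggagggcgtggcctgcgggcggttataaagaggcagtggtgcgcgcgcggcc
SPC25, CDC20, PLK1 and TOP2A hold 1, 2, 1 and 2 CHR and 2, 2, 1 and 4 CCAAT motifs, and UBE2S holds no CHR and 1 CCAAT. No CHR overlapped a CCAAT in these windows. In all, a CHR was found in 24 of the 45 mitosis promoters that could be matched (53.3%), against 13.6% of all 27303 promoters in the table and 7.40% of the 5390 matched genes tested. CCAAT was found in 73.3%, against 33.0% and 35.7%. Among the 19 matched members below the control in both libraries the CHR share was 42.1%. A 20-base p53 consensus element was searched with its C and G bases fixed and up to 2 mismatches elsewhere. It was found in 1 of 30 matched p53 target promoters and in 0.231% of all promoters. Of the 18 matched p53 targets above the control in both libraries, none held it. These motifs were chosen with the list results known, and a match is a string in a window, not a bound site.

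DNA replication genes had a median of -0.42 in knockdown 1 and 0.03 in knockdown 2. Of 40 tested, 35 were below the control in knockdown 1 and 14 in knockdown 2, against 3530 and 3046 of all 6657 genes. Above the control in both libraries were 4 of the 40, and below it in both 13 (32.5%). Of all genes, 31.0% were above it in both and 29.8% below it in both, so the share lower in both was near that of all genes. The transcription factor E2F2 was the one member at least 0.5 lower in both, at 7.70 in control cells, 2.25 in knockdown 1 and 4.99 in knockdown 2. PCNA, the replication clamp, stood at 213.5, 215.2 and 217.5, within a narrow range. A CHR was found in 1 of the 37 matched promoters of this list.

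Genes of homologous recombination and the Fanconi anaemia pathway, which repair broken and cross-linked DNA, had medians below the control in both libraries. Of 26 tested, 14 (53.8%) were below the control in both and 2 (7.69%) above it in both, against 29.8% and 31.0% of all genes. The medians were -0.34 and -0.11. The median of the mean difference over the list was -0.198, and -0.036 among members with a mean level of at least 3. At least 0.5 lower in both were RAD51B, BARD1 and FANCM. BARD1, the partner of BRCA1, stood at 14.2 in control cells, 3.83 in knockdown 1 and 5.17 in knockdown 2, and its footprints at 70.8, 15.1 and 34.1. FANCM, a DNA translocase, stood at 1.85, 0.925 and 0.922, near the low end of the table. The control was above both knockdown values in all 3 genes, which the limit of 0.5 requires. The kinase gene ATM went to the other side at 1.92, 3.11 and 5.92.

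**Figure D3:**
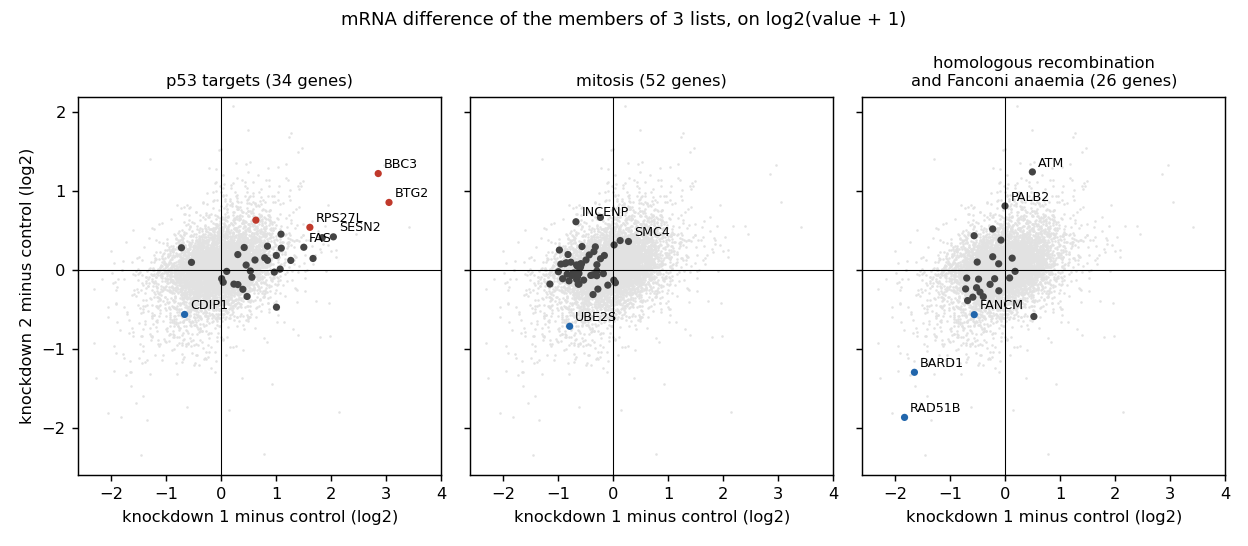
Difference from the control in knockdown 1 (x axis) and knockdown 2 (y axis), log2(value + 1), for members of 3 lists (dark points; red and blue where at least 0.5 higher or lower in both) over the other genes (grey, those beyond the axis limits not shown). p53 targets extend to the right and mitosis genes to the left along the x axis, with medians in knockdown 2 of 0.12 and 0.00, while RAD51B and BARD1 lie low on both axes.

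Apoptosis genes held 4 of 22 at least 0.5 higher in both (BBC3, BIRC2, APAF1 and DFFB) and none lower, against 2.58% and 2.88% of all genes. Without a minimum, 6 of 22 (27.3%) were higher in both and 4 (18.2%) lower in both, against 31.0% and 29.8% of all genes. The medians were 0.25 and -0.09, with 17 of 22 above the control in knockdown 1 and 15 of 22 below it in knockdown 2. DFFB, the caspase-activated DNase, stood at 5.32 in control cells, 8.42 in knockdown 1 and 8.34 in knockdown 2. BBC3 and APAF1 are shared with the p53 list. Of the 11 NF-kB targets, BIRC2 and CYLD, a deubiquitinase that restrains NF-kB, were at least 0.5 higher in both, with CYLD at 1.29, 3.17 and 4.07. Both genes stood above the control in each knockdown library, which the limit of 0.5 requires.

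Chromatin modifiers were higher in both in 22 of 45 (48.9%) and lower in both in 13 (28.9%), against 31.0% and 29.8% of all genes, with medians of 0.00 and 0.12. KDM3A, CHD9 and KDM2A were at least 0.5 higher in both and no member at least 0.5 lower in both. CHD9, a chromodomain helicase, stood at 1.63 in control cells, 4.16 in knockdown 1 and 3.77 in knockdown 2. KDM2A, an H3K36 demethylase, stood at 17.7, 27.7 and 25.8 and carried 8 m6A peaks and a RIP ratio of 3.71. All 45 had an m6A peak, with a median of 5 peaks against 2 over all genes. Hypoxia response genes were higher in both in 10 of 18 (55.6%) and lower in both in 2 (11.1%), against 31.0% and 29.8% of all genes, with medians of 0.44 and 0.09. KDM3A was the one member past 0.5 in both.

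In the translation machinery, which YTHDF1 is known to contact, few members were past 0.5 on the same side in both libraries. Of all genes, 2.58% were at least 0.5 higher in both and 2.88% at least 0.5 lower. Without a minimum, 31.0% of all genes were higher in both and 29.8% lower in both. Of 48 cytosolic ribosomal protein genes, 12 were higher in both, 6 lower in both and none past 0.5 in both. Their medians were 0.24 in knockdown 1, where 41 were above the control, and -0.05 in knockdown 2, where 35 were below it. Of all 6657 genes, 3127 were above the control in knockdown 1 and 3046 below it in knockdown 2. Of 37 translation factors, 16 (43.2%) were higher in both and 6 (16.2%) lower in both, with medians of 0.15 and 0.02. The one member past 0.5 on the same side in both was EIF4E2, the cap-binding protein of translational repression, at 194.0 in control cells, 292.9 in knockdown 1 and 313.1 in knockdown 2. Its knockdown values were both above the control, with limma unadjusted p = 0.0786 and adjusted p = 1. Single members lay far from the control in 1 library: EIF4EBP2, an inhibitor of cap-dependent translation, stood at 10.3, 3.95 and 7.23, and the ribosomal protein gene RPL21 at 4323, 2437 and 4241. EIF4EBP2, named after its values were seen, was below the control in both. Ribosome biogenesis held DDX10, an RNA helicase of ribosome assembly, at 44.0, 63.7 and 85.0, and 20 of 55 members were lower in both against 11 higher in both. Mitochondrial ribosomal proteins had 13 of 48 members higher in both (27.1%) and 15 lower in both (31.25%). Oxidative phosphorylation genes had 17 (41.5%) and 8 (19.5%) of 41. Neither list had a member past 0.5 in both.

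Stress and metabolic lists had few agreeing members, where 2.58% and 2.88% of all genes were at least 0.5 higher or lower in both. PCK2, the mitochondrial phosphoenolpyruvate carboxykinase, was the one integrated stress response gene past 0.5 in both, at 11.8 in control cells, 7.36 in knockdown 1 and 7.42 in knockdown 2. HSPA4L, a heat shock protein of the HSP110 family, stood at 4.79, 8.06 and 7.87. Knockdown values of both genes lay within 0.05 of each other on the log2 scale. The unfolded protein response (17 tested), cholesterol synthesis (18), proteasome (31) and NRF2 targets (13) had no member past 0.5 in both. Of the cholesterol genes 10 of 18 (55.6%) were lower in both and 1 (5.56%) higher in both, against 29.8% and 31.0% of all genes, with medians of -0.20 and -0.01. SLC2A3, a glucose transporter in the glycolysis list, stood at 2.36, 8.46 and 4.06. Autophagy held GABARAPL1, an ATG8-family protein, at 6.17, 16.2 and 10.1. In both the first knockdown library was the higher one.

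In the signalling lists, IRF7 of the interferon response stood at 4.06 in control cells, 7.47 in knockdown 1 and 6.66 in knockdown 2. PTPN14, a phosphatase of the YAP list that carries 7 m6A peaks and a RIP ratio of 7.05, stood at 3.48, 6.20 and 5.90. SMAD6, an inhibitory SMAD of the TGF-beta list, stood at 2.08, 0.793 and 0.877. In these 3 genes the knockdown values were close together. They lay apart from the control, which the limit of 0.5 that chose these genes requires. FOSB, an AP-1 subunit, stood at 0.606, 2.09 and 1.29, among the lowest values of the table. Among RNA-processing lists, UPF3A, a factor of nonsense-mediated decay, stood at 5.37, 9.33 and 9.23, and CLK1, a kinase of splicing factors, at 7.76, 11.9 and 12.6. Each was the one member of its list past 0.5 in both, of 39 mRNA decay and 48 splicing genes. These counts are near the share of all genes, of which 2.58% were at least 0.5 higher in both and 2.88% at least 0.5 lower.

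The Wnt pathway passes a signal from Frizzled and LRP receptors to beta-catenin, which GSK3B phosphorylates for destruction when no ligand is bound, and which acts with TCF factors on target genes. HCT116 is known to carry a stabilising CTNNB1 mutation. CTNNB1 mRNA stood at 44.7 in control cells, 40.9 in knockdown 1 and 50.2 in knockdown 2, and the control lay between them. The co-receptor LRP6 stood at 3.53, 3.94 and 3.55, and the transcription factor TCF7L2 at 69.8, 47.8 and 89.8. GSK3B stood higher in both, at 15.2, 28.6 and 26.2, with differences of 0.87 and 0.75 and limma unadjusted p = 0.0463 and adjusted p = 1. The corepressor TLE2 stood at 20.7, 13.0 and 11.8 and the planar polarity gene PRICKLE1 at 5.07, 2.95 and 0.825, both at least 0.5 lower in both libraries. In all, 9 of 36 pathway genes were higher in both and 11 lower in both. Wnt targets had medians of -0.54 and -0.07, with 2 of 17 (11.8%) higher in both, 8 (47.1%) lower in both and none past 0.5 in both, against 31.0% and 29.8% of all genes. CCND1 stood at 149.5, 135.2 and 142.6, CD44 at 443.4, 294.0 and 504.9, and SOX9 at 29.9, 60.5 and 24.8. Only CCND1 of these lay on the same side of the control in both libraries, with differences of -0.14 and -0.07.

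Of 21 tested genes of the m6A machinery, YTHDF1 was the one past 0.5 in both. The reader YTHDF2 stood at 28.8 in control cells, 33.6 in knockdown 1 and 40.2 in knockdown 2, above the control in both by 0.22 and 0.46. The writer METTL3 stood at 21.5, 16.8 and 28.3 and METTL14 at 9.28, 9.86 and 8.99, with the control between the knockdown libraries in each. The demethylases FTO and ALKBH5 stood at 19.9, 21.2 and 27.0 and at 47.2, 43.9 and 38.1. In limma these 5 genes had adjusted p = 1. Over the 21 genes 4 were higher in both and 9 lower in both, against 31.0% and 29.8% of all genes. The 9 lower genes include YTHDF1, the target of the knockdown. WTAP and YTHDF3 were not analysed here.

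**Figure D4:**
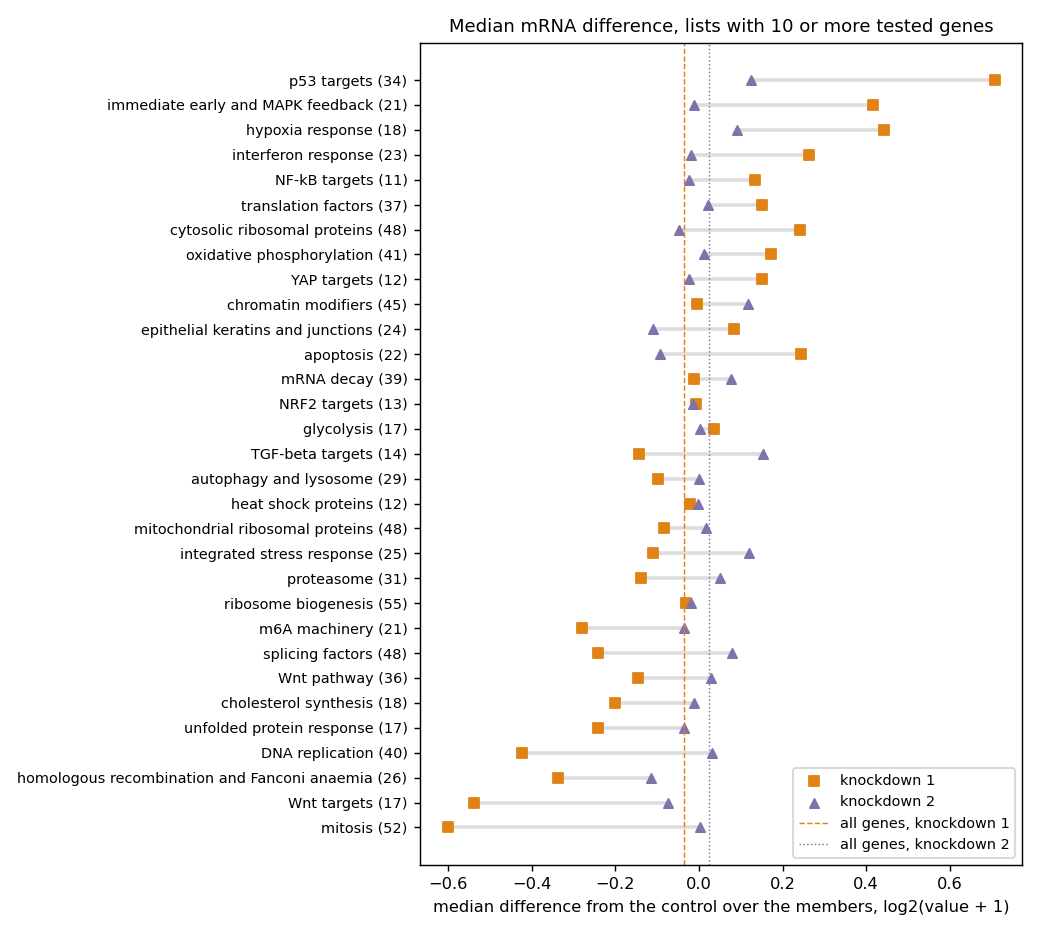
Median difference from the control over the members of gene lists with at least 10 genes tested (number in brackets; the intestinal, fibroblast and blood or endothelial lists are smaller and not drawn, nor are the ZNF genes), log2(value + 1), for knockdown 1 (orange squares) and knockdown 2 (violet triangles), with dashed and dotted lines at the medians of all genes. Knockdown 1 spans -0.60 (mitosis) to 0.71 (p53 targets), while knockdown 2 stays between -0.11 and 0.15 in the lists drawn.

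The labelled cell type was checked against markers. The epithelial genes KRT8, KRT19 and EPCAM stood at 1529, 1590 and 141.9 in the control, 2142, 2095 and 156.6 in knockdown 1 and 1268, 1447 and 140.7 in knockdown 2. Of 24 epithelial genes tested, DSC2 (a desmosomal cadherin) and CGN (cingulin of tight junctions) were at least 0.5 higher in both. Of all genes, 2.58% were at least 0.5 higher in both and 2.88% at least 0.5 lower. Without a minimum, 4 of the 24 were higher in both and 4 lower in both, against 31.0% and 29.8% of all genes. The medians of the 24 were 0.08 and -0.11. Of the 19 fibroblast markers 7 were tested, and TAGLN was at least 0.5 lower in both at 15.6, 6.67 and 10.3. Of these 7, 4 were lower in both and 1 higher in both, with medians of -0.48 and -0.35, the lowest of the lists in knockdown 2, and their part in the other results was not tested. The one blood or endothelial marker tested of 22, CD68, stood at 19.9, 4.98 and 19.9. Intestinal differentiation genes were mostly low, with KRT20 at 1.36, 1.39 and 0.978 and 6 of 39 tested, of which PLS1 stood at 14.9, 40.2 and 22.7.

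Genes were grouped by m6A peak number. The median of the mean difference was 0.04 over 1071 genes with no peak, -0.03 over 1430 with 1 peak, -0.03 over 2505 with 2 to 3 and 0.02 over 1651 with 4 or more. At least 0.5 higher in both were 4.2% of genes without a peak and 2.48% of those with 4 or more, and at least 0.5 lower in both were 4.2% and 2.67%. Genes without a peak also had a lower median level (3.28 against 3.64 for 4 or more peaks), and the agreeing share was higher at low level in every class. When genes were cut into 3 equal groups by level, the shares at least 0.5 higher in both were 5.97% and 2.94% in the lowest group, 4.35% and 2.66% in the middle group and 1.51% and 1.64% in the highest. The shares at least 0.5 lower in both were 7.41% and 4.89%, 3.16% and 1.96%, and 0.301% and 1.17% in the same order. Genes without a peak had the larger shares in the lower 2 groups and the smaller ones in the highest group, where the shares rest on 5 and 7 genes higher and 1 and 5 lower. RIP-listed genes had a median of -0.02 over 2411 genes and those not listed 0.00 over 4246. Their shares at least 0.5 higher in both were 2.32% and 2.73%, and at least 0.5 lower in both 2.70% and 2.99%. The RIP list holds only ratios of at least 1.5, so an unlisted gene may have had any lower ratio.

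**Figure D5:**
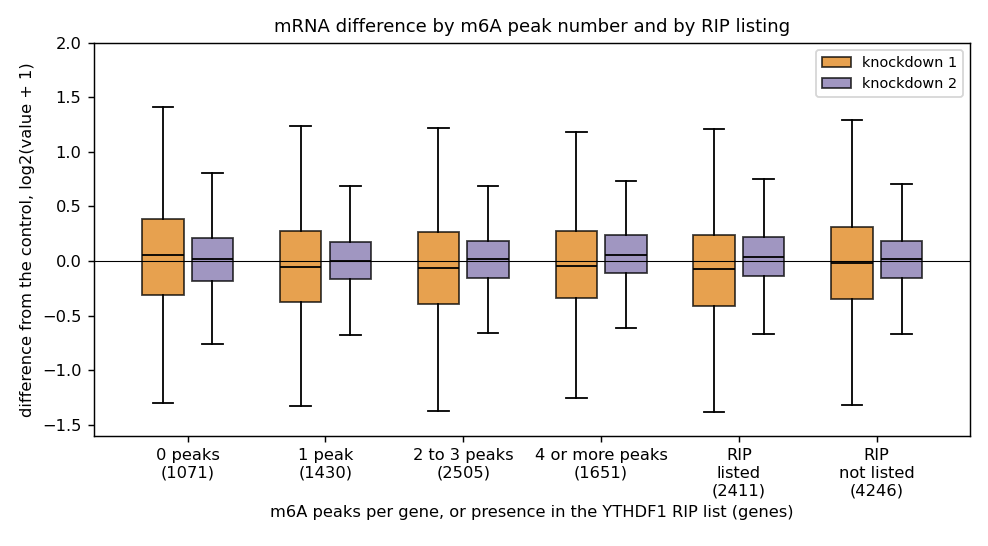
Difference from the control by m6A peak number and RIP listing (number of genes in brackets), log2(value + 1), for knockdown 1 (orange) and knockdown 2 (violet); boxes span the quartiles, lines mark medians and whiskers reach the last gene within 1.5 box heights. Every box crosses 0, and the boxes of knockdown 1 are taller.

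Seen from the agreeing genes, 73.8% of the 172 higher and 76.6% of the 192 lower genes had a peak, against 83.9% of all genes tested, and 32.6% and 33.9% were in the RIP list, against 36.2%. Their median levels, 3.04 and 2.51, were below the 3.73 of all genes. Their genes were longer, with median genomic spans of 41.5 and 36.6 kb against 31.3 kb. The motif that the authors list for each peak began with GGAC in 27.7% and 24.7% of peaks on the higher genes (m6A replicates 1 and 2), 34.5% and 36.8% on the lower genes and 30.7% and 29.5% on all. As single examples, the highest peak of SYTL1 was listed with GGACA in both replicates, that of HTT with AGACA and that of KDM3A with GAACC. The peak ratios are the authors' own.

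Ribosome footprints were set beside the agreeing genes. Footprint differences were taken from their own single control and knockdown pair. Over 6519 genes with a footprint level 17.7% had footprints above the control in both knockdown libraries and 50.8% below it in both. Of the mRNA-higher genes 25.3% had footprints higher in both and 31.2% lower in both, and of the mRNA-lower genes 8.94% and 58.1%. Across genes, which are not independent replicates, mRNA and footprint differences correlated at r = 0.358 in knockdown 1 and 0.059 in knockdown 2. Of the 15 strongest mRNA-higher genes 2 had higher footprints in both, 5 lower in both and 8 opposite signs, and of the 15 strongest mRNA-lower genes 1, 9 and 5.

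The RIP input, another library of control HCT116 RNA, was set beside the mRNA libraries. Genes were ranked within each library over the 2411 listed genes. A gene entered that list by a ratio to this same input of at least 1.5, which favours low input values. The ranks therefore cannot check the lone control. For 36 of the 56 listed higher genes the input percentile lay nearer to the control, and for 31 of the 65 listed lower genes. The share over all 2411 genes was not computed, so nothing is read from these counts. YTHDF1 lay at percentile 79.7 in the control, 43.4 and 38.0 in the knockdown libraries and 75.7 in the input, close to the control. HTT lay at 41.7 in the control, 68.7 and 65.7 after knockdown and 6.0 in the input, below all 3 mRNA libraries. For KDM3A the percentiles were 28.7, 67.9, 67.7 and 60.6, and for PSKH1 74.8, 35.1, 41.5 and 49.1. In KDM3A and PSKH1 the input lay nearer to the knockdown libraries than to the control they were measured against. The part of the single control value in these differences was not tested.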

How the data were processed

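mRNA values of 1 control and 2 knockdown HCT116 libraries were taken from a deposited table, as a signal per gene in relative units that the file headers do not name. STAR and GRCh38 are named in the submitters' processing notes without versions. The m6A lists hold deposited signal and a peak-to-input ratio, at least 3, called per replicate. The RIP list holds FPKM from the authors and their ratio. Peak number is the mean of the 2 m6A replicates, rounded up.

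Values were analysed as log2(value + 1), which understates changes of low genes, with a mean of at least 1, in limma 3.58.1 (trend, R 4.3.3), two-sided with Benjamini-Hochberg adjustment, tested on simulated data. Named per direction were the 15 genes with the largest smaller difference at a mean level of at least 3, up to 4 agreeing members per list, otherwise 2, and a panel of m6A and Wnt genes. Coordinates and promoters are from RefSeq (99.7% of genes matched). Members and lists were chosen with earlier results of these data known. Values of some genes are not reported here.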

Additional observations from a re-analysis of the deposited data

How the results depend on the processing

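Against 172 genes at least 0.5 higher and 192 at least 0.5 lower in both knockdown libraries, a pseudocount of 0.1 gave 271 and 260, a pseudocount of 5 gave 49 and 53, and a mean level of at least 3 gave 88 and 74. A minimum of 1 gave 20 and 25, and no minimum 2063 and 1982. Leaving out 1 knockdown library gave 422 to 895 higher and 382 to 1183 lower, the larger counts without knockdown 2. No genes passed limma (101 with unadjusted p below 0.05), nor under pseudocounts, filters, median centring, quantile normalisation, a constant prior or all 6 libraries without a block. Fitted with the footprint libraries and the replicate block, 2 genes passed (ARL14EP, adjusted p = 0.0125, and ARMC8, adjusted p = 0.0152, against 0.208 for both without footprints, with 155 genes at unadjusted p below 0.05). The numbers come from hairpin names shared by mRNA and footprint libraries, 1 pair per name, and between-library differences of the assays correlated at r = 0.386 across genes. Leaving out a knockdown library gave 0 to 1 passing, the 1 without knockdown 1. The median of NRF2 targets, 0.01, was -0.014 without knockdown 1 and -0.007 without knockdown 2, and that of homologous recombination and Fanconi anaemia, -0.198, was -0.036 at a mean level of at least 3. The gap in median between genes with 4 or more peaks and none (-0.02) ran from -0.099 to 0.032, and that by RIP listing (-0.02) from -0.056 to 0.020. Differences of 22 and 41 of the 89 named genes moved by more than the spread between libraries with pseudocounts of 0.1 and 5, and of 4 and 3 with median centring and quantile normalisation, none of them to the other side of 0. Read depth is unknown, so counting error could not be given.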
